A study of Rattus norvegicus with 12 samples.

Results

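Mutant thoracic spinal cord was set against wild-type cord late after a mild compression injury, at 24 h and at 7 d, to ask whether the mutant cord responds less. The labels' genotype, surgery and time chose 4 of the 12 RNA pools of the study for this: G93A after injury at 24 h, G93A after injury at 7 d, WT after injury at 24 h and WT after injury at 7 d. G93A rats carry the G93A SOD1 gene mutation, and the WT rats are littermates. Every pool came from female Sprague-Dawley rats of 10 weeks. The baseline was 4 sham-operated pools, 1 of each genotype at 30 min and 1 of each at 4 h after sham surgery, so that no sham cord was taken at 24 h or 7 d. The other 4 pools, injured cords of both genotypes at 30 min and 4 h, entered the fit only to estimate the spread. RNA was pooled before labelling, and how many rats made up a pool, which promoter drives the transgene and how many copies it has are not known from the labels. With 1 pool in each condition, p-values measure only the spread between pools, which may be technical.

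Mutations of SOD1 cause a familial form of amyotrophic lateral sclerosis, in which motor neurons degenerate while astrocytes and microglia become reactive. A compressed cord loses neurons and axons at the site, and blood monocytes and neutrophils enter it. Chemokines and interferon-induced genes are switched on, phagocytes clear debris, and fibroblast-like cells later lay down collagen in a scar. In RNA from whole tissue, fewer cells of a type and less RNA per cell cannot be told apart.

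Values are log2 signals after background modelling and quantile normalization, on which a difference of 1 is a 2-fold difference and probes at background lie near 6.4 (S100a9, detected on 0 arrays, had 6.43 and 6.41 in G93A at 24 h and 7 d, against 6.4 and 6.43 in WT). The late injury pools had 49.6% to 52.5% of 22226 probes detected, against 41.3% in the WT pool taken 30 min after injury, which stood apart from the other 11 (49.6% to 53.8%). Fewer probes were detected in WT than in G93A in both late pairs, with 50.6% against 51.7% at 24 h and 49.6% against 52.5% at 7 d. Sham pairs had the same order, with 52.8% against 53.8% at 30 min and 51.0% against 52.2% at 4 h. The part of array quality in the genotype differences was not tested. Probes were tested when detected on at least 2 arrays, which left 13793, of which 9423 had a gene symbol. The deposited probe identifiers were sorted before use, because 51.8% of signals of smell receptor probes, which should be silent in cord, were detected with the identifiers as deposited and 6.08% after sorting. The probe for rat Sod1 read 12.47 and 12.64 in G93A at 24 h and 7 d, against 12.71 and 12.29 in WT. It does not check the transgene label, since what the probe reads of the mutated gene is not known from the labels. Cord markers were present: Snap25 of neurons, Mobp of oligodendrocytes, Gja1 of astrocytes, Aif1 of microglia and Cldn5 of endothelium were each detected in the 4 late pools. Other markers fixed beforehand were detected there but lay close to background. Aqp4 of astrocytes read 6.65 and 6.95 in G93A at 24 h and 7 d, against 6.62 and 6.68 in WT. Cx3cr1 of microglia read 6.56 and 6.84 in G93A, against 6.6 and 7.03 in WT. Hoxc9, of thoracic level, read 6.61 and 6.55 in G93A, against 6.57 and 6.59 in WT. Chat, Gfap, Csf1r and Pecam1 could not be matched to a probe, and the motor neuron gene Slc5a7 lay close to background, at 6.87 and 6.91 in G93A at 24 h and 7 d, against 6.9 and 6.59 in WT.

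The response to injury ran the same way in both genotypes and was smaller in G93A at both late times. Responding probes were chosen with both genotypes together, as the mean of the 4 late pools against the mean of the 4 sham pools (limma, adjusted p under 0.05), so that the choice favoured neither genotype. By that rule 2117 probes rose (15.3% of those tested) and 2034 fell (14.7%). Over the probes that rose, the median response at 24 h was 0.45 in G93A and 0.55 in WT, a ratio of 0.823. At 7 d it was 0.42 in G93A and 0.59 in WT, a ratio of 0.724. Over the probes that fell, the median response at 24 h was -0.48 in G93A and -0.62 in WT, a ratio of 0.779, and at 7 d it was -0.46 in G93A and -0.65 in WT, a ratio of 0.701. Each genotype was measured against its own sham pools. Over all tested probes the slope of the G93A response on the WT response (major axis) was 0.8 at 24 h and 0.712 at 7 d. With the sham pools of 30 min alone as baseline these slopes were 0.874 and 0.783, and with those of 4 h alone 0.735 and 0.659, so that the value depended on the sham time but stayed under 1.

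**Figure D1:**
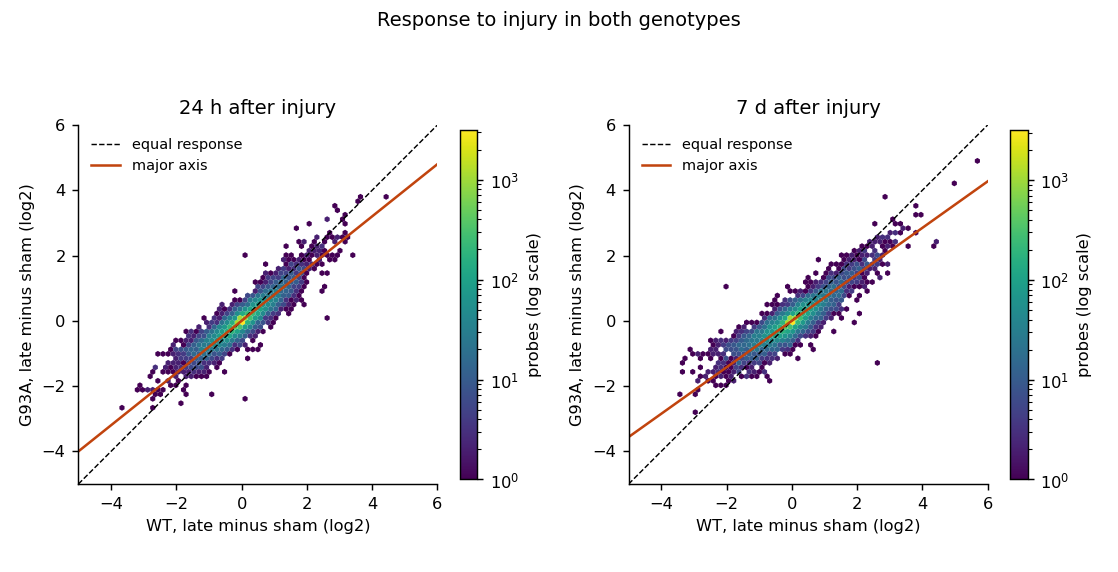
Response to injury of the 13793 tested probes in G93A cord (vertical axis) against WT cord (horizontal axis), each as the late pool minus the mean of the 2 sham pools of its genotype, on the log2 scale, with colour for the number of probes. The major axis (orange, slopes 0.8 at 24 h and 0.712 at 7 d) is flatter than the dashed line of equal response.

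Most responding probes shared this direction. Of the probes that rose, 69.7% read lower in G93A than in WT at 24 h and 81.6% at 7 d. Of the probes that fell, 78.4% read higher in G93A at 24 h and 84.4% at 7 d. Both times together gave 58.1% of the rising and 68.7% of the falling probes. Among 360 probes with a mean response of at least 2-fold downward, 92.5% read higher in G93A at 24 h and 94.4% at 7 d, with response ratios of 0.742 and 0.604. The 412 probes with a mean response of at least 2-fold upward had ratios of 0.879 at 24 h and 0.809 at 7 d, and 64.6% and 87.6% of them read lower in G93A. In the other conditions the same probes ran in either direction. At 30 min after injury 49.1% of the rising probes read lower in G93A and 64% of the falling probes read higher, with a median difference of 0.109 for the falling probes, as large as at 24 h. In sham cords at 30 min the shares were 61.4% and 59.7%, also in the late direction. The opposite direction held at 4 h, with 30.8% and 27.2% after injury and 37.6% and 40.8% in sham cords. The probes were chosen on late minus sham values, so these shares are descriptions, with no test, and probes are not independent of each other.

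**Figure D2:**
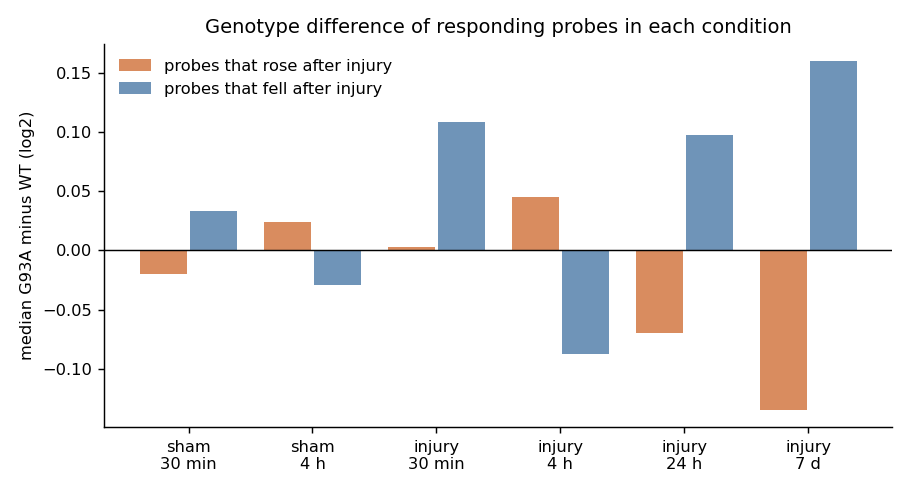
Median G93A minus WT difference, on the log2 scale, over the 2117 probes that rose and the 2034 that fell after injury, in each of the 6 conditions (1 pool per genotype in each). The differences were -0.07 and 0.098 at 24 h and -0.135 and 0.16 at 7 d, with the same signs in sham cords at 30 min (-0.02 and 0.033), the opposite signs at 4 h after injury and after sham, and 0.003 and 0.109 at 30 min after injury.

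No single probe passed the test of the late genotype difference when all 12 pools set the spread. In that limma fit 0 of 13793 probes (0%) had an adjusted p under 0.05, 760 had an unadjusted p under 0.05, and the lowest adjusted p was 0.409. The test of whether the change from sham to late injury differed between genotypes also called 0% of the probes, with 356 at an unadjusted p under 0.05. This fit takes its spread partly from how far the genotype difference moved between 30 min and 4 h after injury. At 30 min after injury 1064 probes stood at least 2-fold apart between genotypes, against 32 at 4 h, 58 at 24 h and 116 at 7 d, and the 30 min pair holds the WT pool with few detected probes. Fitted over the 8 late and sham pools, limma called 153 probes higher in G93A (1.11%) and 19 lower (0.138%), with 2091 at an unadjusted p under 0.05. Leaving out only the WT pool of 30 min after injury gave 153 higher and 27 lower, and 171 of these 180 probes were among the 172 called over 8 pools. Leaving out any other 1 of the 4 early injury pools gave 167 to 169 calls, since the remaining early pair member then adds nothing to the spread. The difference in response had 1 call over 8 pools (0.00725%), a probe with no gene symbol, ILMN_66032, with 1574 at an unadjusted p under 0.05. The 8-pool calls rest on the spread between the 24 h and 7 d differences and between the 2 sham differences, with 2 residual degrees of freedom. Calls below are given as over 8 pools, and each of them is lost over 12 pools.

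At each single time more probes stood apart upward than downward in G93A. By a 2-fold rule, 41 probes were higher in G93A (0.297%) and 17 lower (0.123%) at 24 h. At 7 d the counts were 83 higher (0.602%) and 33 lower (0.239%). With 1 pool a group these are sizes with no replicate check. The 24 h and 7 d differences share no pool, and their Pearson correlation over the 13793 probes was 0.4, a description across probes that share their arrays and normalization. A difference of at least 1.5-fold in 1 direction at both times was found for 112 probes higher in G93A (0.812%) and 9 lower (0.0653%). The 112 probes were nearly all genes of the falling response, with 104 that fell after injury and 1 that rose, and 105 were called over 8 pools. The median difference of these 112 in sham cords was 0.03. Of the 9 lower probes 6 had risen after injury, and 5 were called over 8 pools. Both sets were picked on the differences that the 8-pool fit tests, and for 1 direction at both times. Their calls therefore add no support.

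Genes were named by the smaller of the differences at 24 h and 7 d among symbols with 1 direction at both, the 15 highest and the 15 lowest. The rule uses the tested contrast and favours probes whose differences were alike at both times, so that their calls support nothing further. It also favours genes whose late G93A and WT pools do not overlap, and the share of all tested probes with such pools was not counted. Over 8 pools 15 of the 15 highest and 7 of the 15 lowest were called.

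**Figure D3:**
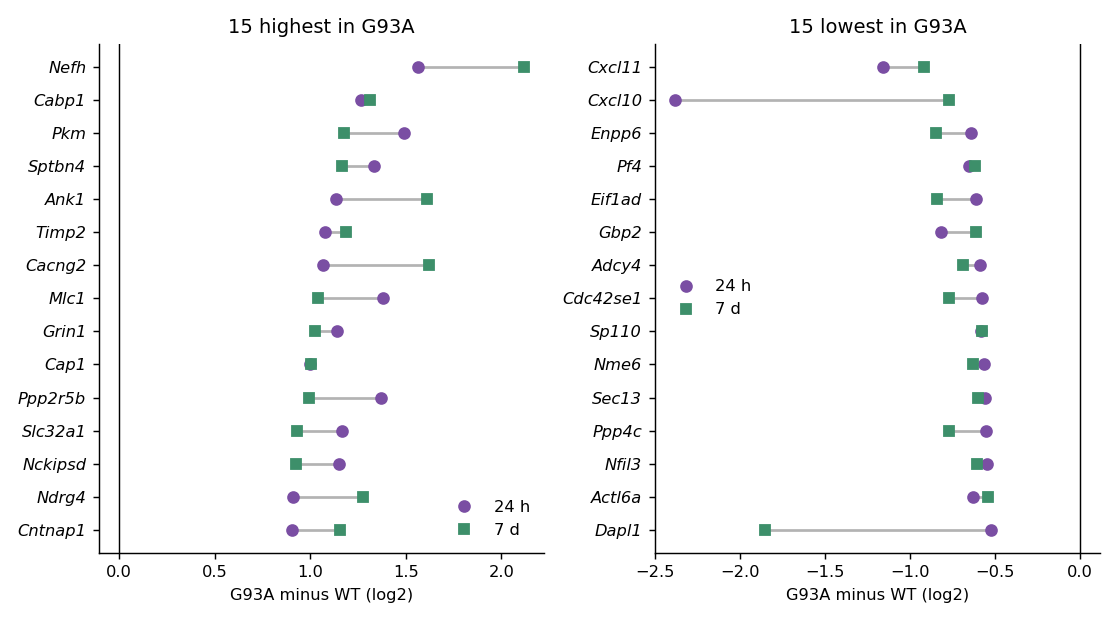
G93A minus WT difference on the log2 scale at 24 h (circles) and 7 d (squares) for the 15 named genes highest and the 15 lowest in G93A by the smaller of both differences. Nefh leads the highest, at 1.56 and 2.12, and Cxcl10 has the largest single difference among the lowest, -2.38 at 24 h.

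The gene highest in G93A by this rule, Nefh, encodes the heavy neurofilament subunit of large axons. Nefh read 9.41 and 9.17 in G93A at 24 h and 7 d, against 7.85 and 7.05 in WT. In sham cords it read 10.68 and 10.27 in G93A and 10.26 and 10.51 in WT, at 30 min and 4 h. Its late injured pools thus lay below their shams in both genotypes. The genotypes did not overlap at the late times, an order that the naming rule favours. The late difference was 1.84 ± 0.35 (SE, 12 pools; limma adjusted p = 0.411), or ± 0.19 over 8 pools (limma adjusted p = 0.0045). At 4 h after injury the order was the other way, with 9.53 in G93A and 10.72 in WT.

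Among the other highest genes were Sptbn4, a spectrin of axon initial segments and nodes of Ranvier (8.58 and 8.51 in G93A, against 7.24 and 7.34 in WT), and Cntnap1, which joins the axon to myelin beside the node (10.26 and 9.88 in G93A, against 9.36 and 8.72 in WT). Ank1, an adaptor of the membrane skeleton, read 9.52 and 9.32 in G93A, against 8.38 and 7.71 in WT. Synaptic members were Grin1, the obligatory NMDA receptor subunit (9.80 and 9.19 in G93A, against 8.66 and 8.16 in WT), Cacng2, the AMPA receptor partner stargazin (9.80 and 9.21 in G93A, against 8.74 and 7.59 in WT), and Slc32a1, the vesicular transporter of GABA and glycine (8.41 and 7.82 in G93A, against 7.24 and 6.89 in WT). Cabp1, a neuronal calcium sensor, read 9.35 and 8.92 in G93A, against 8.09 and 7.61 in WT. For each of these 7 genes both late G93A pools lay above both late WT pools, with late differences from 1.03 (Cntnap1) to 1.38 (Ank1). The naming rule favours such an order, so that it adds no support for these genes. Their limma adjusted p ranged from 0.409 to 0.58 over 12 pools and was at most 0.0145 over 8 pools, and each fell after injury in the test of both genotypes together. In sham cords the mean G93A minus WT difference was 0.33 for Cabp1 and 0.30 for Cacng2. For the others it ran from -0.25 (Ank1) to 0.20 (Slc32a1).

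Of the 5 other highest genes without a list of their own here, Ndrg4, a cytoplasmic protein abundant in neurons, read 11.54 and 11.57 in G93A, against 10.63 and 10.30 in WT. Nckipsd, a partner of actin regulators, read 9.66 and 9.23 in G93A, against 8.51 and 8.30 in WT, and Ppp2r5b, a regulatory subunit of protein phosphatase 2A, read 8.09 and 8.44 in G93A, against 6.72 and 7.44 in WT. In both, each late G93A pool lay above the late WT pools. Ppp2r5b was also higher in G93A in sham cords, at 9.12 and 9.22 in G93A and 8.62 and 8.73 in WT, at 30 min and 4 h. Timp2, an inhibitor of matrix metalloproteinases, read 7.70 and 8.88 in G93A, against 6.63 and 7.69 in WT, and Cap1, which recycles actin, read 8.13 and 9.13 in G93A, against 7.13 and 8.13 in WT. For these last genes the 24 h and 7 d pools of a genotype were as far apart as the genotypes, and Cap1 did not pass the test of the late response (limma adjusted p = 0.313).

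**Figure D4:**
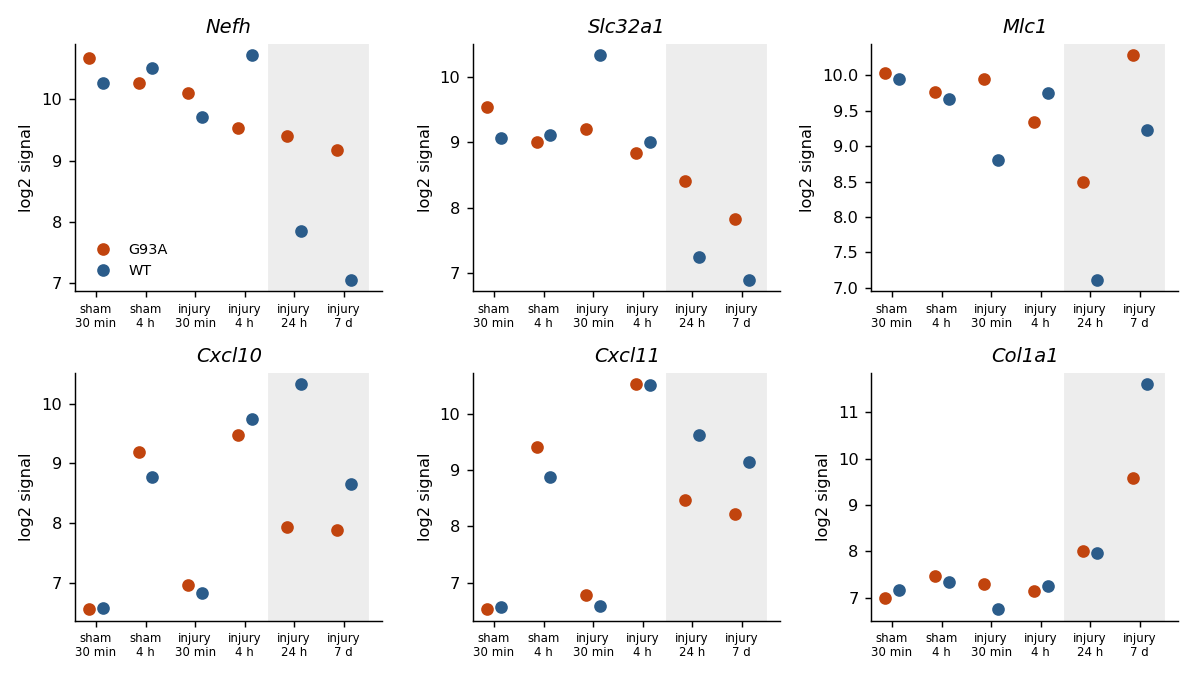
Log2 signal of 6 genes in the 12 pools, with G93A (orange) left of WT (blue) in each condition and the late injury times shaded; each point is 1 pool. Nefh, Slc32a1 and Mlc1 lay higher in G93A at both late times, Cxcl10 and Cxcl11 lay lower, and Col1a1 was at least 2-fold apart at 7 d alone among these late times (9.58 in G93A, 11.6 in WT).

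Across the list of neurofilament and neuron structure genes, 14 of 15 tested genes were higher in G93A at both times and 0 were lower at both, beside 28.4% higher and 30.6% lower at both among all tested probes. The median difference was 0.32 at 24 h and 0.86 at 7 d, against medians over all probes within 0.01 of 0. Called over 8 pools were 4 (Nefh, Ina, Thy1 and Eno2), beside 1.11% of all tested probes called higher. After injury 11 of the 15 had fallen, beside 14.7% of all tested probes. Nefm, the medium neurofilament subunit, read 10.78 and 10.68 in G93A, against 10.44 and 9.19 in WT, so that its difference of 1.49 at 7 d was larger than the 0.34 at 24 h. Ina, alpha-internexin, read 10.00 and 9.49 in G93A, against 9.43 and 8.33 in WT (0.87 ± 0.16 SE over 8 pools, limma adjusted p = 0.0312). Nefl, the light subunit and the brightest of the list, differed by 0.09 at 24 h and 0.99 at 7 d and was not called. The mean level of the 15 genes was 10.43 and 10.32 in G93A, against 10.07 and 9.49 in WT, below the sham range of both genotypes (11.06 to 11.26).

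Genes of inhibitory neurons followed the same order. Of 9 tested, 7 were higher in G93A at both times and 0 lower, with medians of 0.15 at 24 h and 0.80 at 7 d. Gad1, which makes GABA, read 10.39 and 10.32 in G93A, against 9.99 and 9.22 in WT, and Slc6a5, the glycine transporter of nerve endings, read 9.75 and 9.61 in G93A, against 9.27 and 8.11 in WT. Neither was called over 8 pools (limma adjusted p = 0.0672 and 0.0638), whereas Slc32a1 and Pvalb, a calcium buffer of fast interneurons, were. Gad2, Glrb and Glra1 lay near background, from 6.43 to 6.70 in the 4 late pools, and differed by at most 0.13. In the synaptic vesicle list 10 of 16 genes were higher and 3 lower at both times, and Snap25 and Syp, of the release machinery and the vesicle membrane, were called over 8 pools. The voltage-gated channel list had 9 of 15 higher and 1 lower at both times. It had 4 calls over 8 pools, beside 1.11% of all tested probes called higher. They were Cacng2, the potassium channels Kcnc1 and Kcnd2, and Hcn2, a pacemaker channel. Kcnc1 read 8.98 and 8.85 in G93A, against 8.13 and 7.39 in WT. The medians of these lists were 0.06 at 24 h and 0.12 at 7 d for vesicles and 0.07 and 0.05 for channels. Their size depended on the scaling: the late median of the vesicle list was 0.08, against 0.29 with the background model left out and 0.27 in the authors' matrix values, and that of the channel list was 0.06, against 0.22 and 0.21.

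Among neuropeptides the median difference was -0.02 at 24 h and 0.39 at 7 d. Cck, cholecystokinin, was called over 8 pools (10.30 and 10.12 in G93A, against 9.73 and 9.05 in WT). The cholinergic motor neuron list had 5 of 10 genes higher and 2 lower at both times, with medians of 0.02 and 0.11, and most of them lay near background. Its 1 call over 8 pools was Slc18a3, which loads acetylcholine into vesicles.

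Homeostatic astrocyte genes were likewise higher in G93A, 12 of 13 at both times and 0 lower, with medians of 0.14 and 0.33. Mlc1, a membrane protein of astrocyte end-feet, read 8.49 and 10.28 in G93A, against 7.11 and 9.23 in WT. Both genotypes thus read higher at 7 d than at 24 h, and each G93A pool lay above the WT pool of its time (late difference 1.21 ± 0.14 SE over 8 pools, limma adjusted p = 0.00463). Gjb6, the gap junction protein connexin 30, read 9.49 and 10.68 in G93A, against 8.69 and 9.23 in WT, and was called over 8 pools (limma adjusted p = 0.00981), as was Slc1a2, a glutamate transporter. Their 12-pool values were not past the threshold (limma adjusted p = 0.597, 0.409 and 0.757 for Mlc1, Gjb6 and Slc1a2). Aldoc, Ndrg2 and Gja1, the brightest of the list, differed by at most 0.52 at either time. Reactive astrocyte genes had 2 of 15 higher and 7 lower at both times with medians of -0.01 and -0.14. After injury 13 of the 15 had risen, beside 15.3% of all tested probes. Vim, the intermediate filament vimentin, read 13.35 and 13.23 in G93A, against 13.50 and 13.72 in WT.

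Genes of energy metabolism were likewise more often higher in G93A than lower. Of 27 oxidative phosphorylation genes 19 were higher in G93A at both times and 0 lower, with medians of 0.10 and 0.23, and 0 were called over 8 or 12 pools. In the glycolysis list 10 of 19 were higher and 1 lower at both times. Pkm, pyruvate kinase, read 8.92 and 8.44 in G93A, against 7.43 and 7.26 in WT, and Pfkm, the muscle-type phosphofructokinase, read 9.12 and 9.77 in G93A, against 8.40 and 8.85 in WT. Both were called over 8 pools, and Aldoc and Ldhb, the brightest of this list, were not.

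The named genes lowest in G93A were led by a pair of chemokines, Cxcl11 and Cxcl10, which attract T cells through the receptor Cxcr3 and are induced by interferons. Cxcl10 read 7.94 and 7.88 in G93A at 24 h and 7 d, against 10.32 and 8.66 in WT. Sham pools read 6.56 and 6.59 at 30 min (G93A, then WT) and 9.19 and 8.77 at 4 h, so that the sham level itself differed by time in both genotypes. At 4 h after injury the genotypes were near each other, at 9.47 in G93A and 9.74 in WT, and at 24 h the G93A pool lay below that level and the WT pool above it. The late difference was -1.58 ± 0.34 (SE, 12 pools; limma adjusted p = 0.563), or ± 0.28 over 8 pools (limma adjusted p = 0.0254). Cxcl11 read 8.47 and 8.23 in G93A, against 9.63 and 9.15 in WT (-1.04 ± 0.16 SE over 8 pools, limma adjusted p = 0.0147). For both genes each late G93A pool lay below both late WT pools, an order that the naming rule favours.

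Gbp2, an interferon-induced GTPase, read 8.61 and 9.11 in G93A, against 9.43 and 9.72 in WT, and Sp110, an interferon-induced nuclear body protein, read 10.41 and 10.58 in G93A, against 10.99 and 11.16 in WT. Neither was called (limma adjusted p = 0.0759 and 0.0906 over 8 pools). Over the interferon list of 13 tested genes 0 were higher in G93A at both times and 10 were lower, with medians of -0.05 at 24 h and -0.49 at 7 d. Called over 8 pools were Cxcl10 and Ifit3, an antiviral protein, beside 0.138% of all tested probes called lower. Irf7, a transcription factor of the interferon response, read 8.38 and 8.07 in G93A, against 8.78 and 9.44 in WT. The antiviral GTPase Mx1 had opposite orders at the 2 times, with 9.02 in G93A and 8.59 in WT at 24 h, and 9.41 in G93A and 10.60 in WT at 7 d. Of the 13 genes 9 had risen after injury, beside 15.3% of all tested probes. Over all 13 the median response was 0.75 in G93A and 1.45 in WT at 24 h. At 7 d it was 0.35 in G93A and 0.98 in WT. Each median was taken within its genotype and can come from a different gene, whereas the median gene-by-gene difference at 24 h was -0.05. The brightest members, Ifi27 and Ifitm3, were near equal at 24 h and differed by -0.46 and -0.49 at 7 d.

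The 250 bases before the gene start were read for the named lower genes that hold the motif GAAANNGAAA, a core of the element bound by interferon-activated factors, on either strand. They come from RefSeq (build GRCr8), run 5′ to 3′ in the direction of the gene, and have the motif in capitals (its reverse complement where it lies on the other strand). Cxcl10 is on the plus strand at chr14:15988816-15989065, Gbp2 on the plus strand at chr2:234005477-234005726 and Sp110 on the minus strand at chr9:93670660-93670909.
Cxcl10: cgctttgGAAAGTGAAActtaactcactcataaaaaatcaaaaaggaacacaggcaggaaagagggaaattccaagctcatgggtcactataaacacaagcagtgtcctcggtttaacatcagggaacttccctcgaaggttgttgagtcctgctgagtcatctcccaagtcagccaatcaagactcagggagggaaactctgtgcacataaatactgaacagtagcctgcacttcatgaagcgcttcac
Gbp2: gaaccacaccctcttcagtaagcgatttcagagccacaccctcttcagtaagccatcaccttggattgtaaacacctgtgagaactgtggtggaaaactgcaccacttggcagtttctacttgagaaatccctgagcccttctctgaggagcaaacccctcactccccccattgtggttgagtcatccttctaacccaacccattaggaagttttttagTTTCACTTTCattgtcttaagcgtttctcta
Sp110: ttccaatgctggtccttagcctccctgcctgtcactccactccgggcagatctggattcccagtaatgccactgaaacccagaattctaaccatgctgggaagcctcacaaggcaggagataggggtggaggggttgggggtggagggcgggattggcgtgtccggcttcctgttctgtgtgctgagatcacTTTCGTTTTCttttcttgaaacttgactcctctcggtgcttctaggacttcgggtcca
The first capital letter lies 243 bases before the start in Cxcl10, 31 in Gbp2 and 58 in Sp110. It was found in 3 of the 14 lowest named genes with a promoter in the table, in 8 of 10 such genes of the interferon list, in 0 of 11 of the highest named genes, and in 3.41% of all 33469 promoters. Cxcl10 and Gbp2 are counted both among the lowest named genes and in the interferon list, so these counts overlap. The interferon list was made of genes of that response, so its share says nothing about these data. The gene sets used 1 promoter per symbol, whereas the 3.41% covers every promoter. A match is a description of these letters and not a site in use, and Cxcl11 has no match in this window.

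Among the other lowest genes, Enpp6, an enzyme of new oligodendrocytes, read 7.70 and 8.62 in G93A, against 8.34 and 9.47 in WT, and was called over 8 pools (limma adjusted p = 0.0286). Eif1ad, Cdc42se1, Ppp4c (the catalytic subunit of a protein phosphatase) and Dapl1 were called too. Dapl1 read 6.48 and 6.53 in G93A, close to background, against 7.00 and 8.39 in WT. Pf4, a platelet and macrophage chemokine, read 9.93 and 10.58 in G93A, against 10.59 and 11.20 in WT, but its sham pools ranged as widely, from 9.22 to 10.93 in G93A and from 9.69 to 10.42 in WT, and it was not called (limma adjusted p = 0.465 over 8 pools). Adcy4, Nme6, Sec13, Nfil3 and Actl6a were not called either.

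Other chemokines differed at 24 h more than at 7 d. Ccl2, which draws monocytes, read 10.53 in G93A and 12.00 in WT at 24 h, and 7.53 in G93A and 7.70 in WT at 7 d. Ccl7, of the same receptor, read 9.47 in G93A and 10.65 in WT at 24 h, and 6.71 in G93A and 6.97 in WT at 7 d. Cxcl1, which draws neutrophils, read 8.36 in G93A and 9.39 in WT at 24 h and was close to background at 7 d. Over the cytokine list 2 of 23 genes were higher and 10 lower in G93A at both times, with medians of -0.23 at 24 h and -0.08 at 7 d. Called lower over 8 pools were 2 of them (Cxcl10 and Cxcl11), beside 0.138% of all tested probes. A larger difference at 24 h than at 7 d also appeared in the medians of the unfolded protein response list (-0.25 and -0.03), the cell cycle list (-0.26 and 0.00) and the immediate early list (-0.19 and -0.07), each with 0 calls over 8 or 12 pools. Cks2 and Cdk1, of the mitotic machinery, differed by -1.28 and -1.05 at 24 h and by 0.19 and 0.25 at 7 d.

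Scar matrix genes stood apart at 7 d. Col1a1, a chain of fibrillar collagen, read 8.01 and 9.58 in G93A at 24 h and 7 d, against 7.96 and 11.60 in WT, and Postn, a matrix protein of fibroblasts, read 7.92 and 8.96 in G93A, against 8.35 and 11.15 in WT. In sham cords Col1a1 read 7.00 and 7.46 in G93A, against 7.17 and 7.33 in WT. Col3a1 read 9.25 in G93A and 10.53 in WT at 7 d, and Lum, a fibroblast proteoglycan, 9.88 in G93A and 10.88 in WT. Of 15 list members 1 was higher and 9 were lower in G93A at both times, with medians of -0.13 at 24 h and -0.82 at 7 d. After injury 13 of the 15 had risen, beside 15.3% of all tested probes. Over all 15 the median response, taken within each genotype, was 0.59 in G93A and 0.45 in WT at 24 h. At 7 d it was 1.43 in G93A and 2.06 in WT. These medians can come from different genes, and at 24 h their order was opposite to the median gene-by-gene difference of -0.13. None of the 15 was called over 8 or 12 pools (limma adjusted p = 0.207 for Col1a1 and 0.0705 for Postn over 8 pools), and the 7 d values rest on 1 pool of each genotype. Dcn, a proteoglycan of the same cells, went the other way, at 11.69 and 12.21 in G93A, against 11.33 and 11.94 in WT.

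Lists of immune cells and debris clearance had median differences from -0.22 to 0.10. Phagocyte and lysosome genes had 3 of 21 higher and 10 lower at both times, with medians of -0.02 and -0.20. Cd68, a lysosomal protein of phagocytes, read 10.05 and 11.85 in G93A, against 9.93 and 12.52 in WT. The complement list had medians of 0.10 at 24 h and -0.22 at 7 d, the monocyte and macrophage list -0.02 and -0.01, antigen presentation -0.05 and -0.17, and homeostatic microglia -0.04 and -0.12. In these lists 15 of 21, 12 of 14, 11 of 16, 11 of 13 and 6 of 8 tested genes had risen after injury, beside 15.3% of all tested probes. The order is phagocyte, complement, monocyte, antigen presentation and microglia, and 0 were called between genotypes over 8 or 12 pools. The median response at 7 d was smaller in G93A than in WT in each. In that order it was 1.25, 2.02, 0.81, 0.93 and 0.55 in G93A, against 1.5, 2.23, 1.18, 1.26 and 0.78 in WT. At 24 h it was larger in G93A for phagocytes (0.52 against 0.48) and monocytes (0.52 against 0.5). It was smaller for complement (0.76 against 0.89) and antigen presentation (0.9 against 1.05), and near 0 in both genotypes for microglia (0.01 and 0.02). These medians were taken within each genotype and can come from different genes. For phagocytes, monocytes and complement their order at 24 h was opposite to the median gene-by-gene difference (-0.02, -0.02 and 0.10). Myelin and oligodendrocyte genes had medians of 0.05 and -0.11, while 13 of 16 had fallen after injury, beside 14.7% of all tested probes. A p that misses the threshold with so few pools does not show equal levels.

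**Figure D5:**
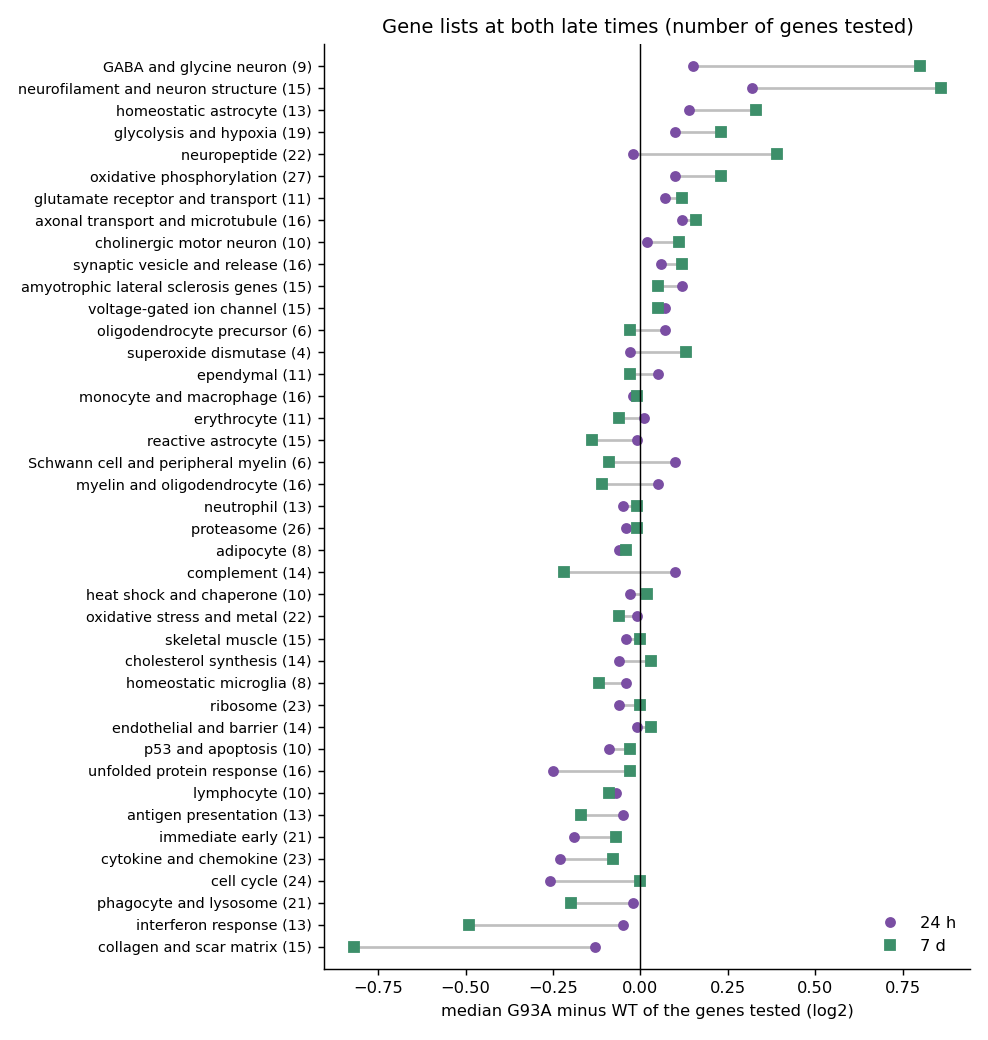
Median G93A minus WT difference on the log2 scale over the tested genes of each of 41 lists, at 24 h (circles) and 7 d (squares), ordered by the late mean; the number of genes tested is in brackets. The inhibitory neuron, neuron structure and homeostatic astrocyte lists lie at the top, followed by glycolysis, and the interferon and scar matrix lists at the bottom; neuron structure stands at 0.86 and scar matrix at -0.82 at 7 d.

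Markers of tissue outside the cord were set beside these differences. Skeletal muscle genes had a mean level of 7.05 and 6.80 in G93A at 24 h and 7 d, against 7.08 and 6.74 in WT, with medians of -0.04 and 0.00 and 1 call over 8 pools, Pvalb, which is also on the inhibitory neuron list. In sham cords the muscle list ran from 7.03 to 7.09 in G93A and from 7.04 to 7.57 in WT, with a median difference of -0.18. Myh4, of fast muscle, was detected on 1 array and Adipoq, of fat, on 1. The lymphocyte list had a mean level of 6.56 and 6.61 in G93A, against 6.65 and 6.80 in WT, with 1 gene, Cd3g, called lower over 8 pools. Fibroblast markers are the scar genes given above, and neuron markers moved with the neuron lists (Snap25 at 12.04 and 11.56 in G93A, against 11.46 and 10.59 in WT). The part of cell makeup in these differences was not tested. Neutrophil genes had a mean level of 7.70 and 7.00 in G93A, against 7.78 and 6.91 in WT, while S100a8, an abundant neutrophil protein, read 9.90 and 8.45 in G93A, against 10.28 and 6.67 in WT. Its sham pools ranged widely too, at 6.67 and 9.31 in G93A at 30 min and 4 h, against 7.11 and 7.80 in WT. The other neutrophil marker, S100a9, was detected on 0 arrays, so that these markers did not go together. Whether its probe reads the gene was not tested.

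Hoxd10, a gene of lower cord levels in vertebrates, had the largest difference of a named gene at 7 d. It read 8.82 and 9.32 in G93A at 24 h and 7 d, against 8.02 and 6.72 in WT. Its sham pools read 7.31 and 7.27 at 30 min (G93A, then WT) and 9.28 and 10.03 at 4 h, so that pools of 1 genotype differed by as much as the genotypes did, although it was called over 8 pools (limma adjusted p = 0.0312). The more anterior Hoxb7 and Hoxa7 read 10.15 and 9.49 in G93A, against 9.99 and 9.39 in WT, at 24 h. At 7 d they read 10.14 and 9.58 in G93A, against 10.00 and 9.04 in WT. Whether the pools differ in the cord level sampled was not tested. These genes and the single-time genes were chosen after their values were seen. The largest other single-time differences were of Rpl30, a ribosomal protein, at 24 h (8.33 in G93A and 10.87 in WT) and of Mrpl18, a mitochondrial ribosomal protein, at 7 d (6.68 in G93A and 9.22 in WT), both near equal at the other late time. In sham cords Mrpl18 read 6.67 and 9.28 in G93A at 30 min and 4 h, against 6.63 and 6.6 in WT. A G93A sham pool thus read near the WT level of 7 d. The ribosome list as a whole had medians of -0.06 and 0.00.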

How the data were processed

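RNA pools of thoracic cord, 12 in all (6 of each genotype), were hybridised to Illumina rat arrays. Per the file headers, the deposited non-normalized file gives for each array a background-subtracted bead intensity, with values below 0, and a detection p-value per probe; BeadStudio 3.2.6 is named in the submitters' processing notes. The series matrix values, whose scale and centring are not stated, served as an alternative. They rose with the deposited intensities at fitted slopes of 0.289 to 0.42 per array, which is not a log2 scale. They were log2-transformed (offset 16) and quantile-normalized before use. Probe identifiers were sorted as text while values stayed in file order, a pairing inferred from the data. Intensities were background-modelled, quantile-normalized and log2-transformed with neqc (offset 16, limma 3.58.1, R 4.3.3). Probes with a detection p under 0.05 on at least 2 arrays were tested, 13793 of 22226. Of the 22226 probes, 13192 had 1 gene symbol, 0 had several and 9034 had none. The limma fit had 6 conditions and a genotype term for late injury, early injury and sham, with an intensity trend and Benjamini-Hochberg adjustment over all tested probes at 0.05. The code was tested on simulated data. With 1 array per genotype in each condition, the number of arrays limits the precision.

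Members, the 41 gene lists (802 entries, 644 on the array, 606 tested) and tests were chosen with earlier results of these data known. Named genes are the 15 highest and 15 lowest by the smaller of the differences at 24 h and 7 d, up to 4 members with the highest mean signal of each described list and its called members. Further genes, named for a single time or as examples, were chosen after their values were seen. Alternatives were the 8 late and sham pools, the 4 late pools, other normalizations, filters and sham baselines, and leaving out each pool.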

Additional observations from a re-analysis of the deposited data

Results flagged for a closer look

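Opposite signs of the genotype difference at 24 h and 7 d were common, since 59% of tested probes had 1 sign at both times. Of the gene lists, 1 had opposite medians at least 0.1 from 0 at both times: the complement list had a median G93A minus WT difference of 0.1 at 24 h and -0.22 at 7 d. Of the genes with the largest single-time differences, 1 was at least 1.5-fold apart in opposite directions: Dhx15, a helicase of RNA splicing, which differed by 1.42 at 24 h and by -0.98 at 7 d. Neither change of sign between times was tested, since each rests on 1 pool of each genotype.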

How the results depend on the processing

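The count of probes called for the late genotype difference by limma was 0 over 12 pools, 172 over the 8 late and sham pools, 179 without both injury pools of 30 min and 345 over the 4 late injury pools alone. It ran from 0 to 180 when 1 pool was left out. Any of the 4 early injury pools left out gave 167 to 180 calls, because the other pool of its condition then carried no genotype difference and the early pairs added no residual. Without the G93A or the WT pool of 24 h the counts were 7 and 9, and without a 7 d or sham pool they were 0. Other settings, namely no filter, no intensity trend, robust moderation, no background model, the authors' matrix values, a stricter filter and 1 genotype term for early injury and sham, gave 0. The difference in response had 1 call over 8 pools and 1 without both injury pools of 30 min, and 0 to 1 with 1 pool left out. The slope of the G93A on the WT response was 0.874 at 24 h and 0.783 at 7 d with the 30 min sham baseline, and 0.735 at 24 h with the 4 h sham baseline. Counts past a fold stayed within 1.5 times, at 43 to 58 probes at 24 h, 91 to 116 at 7 d and 101 to 121 at both times. All 30 named genes kept their sign in the settings in which they were tested, which was nearly fixed beforehand. Filters, changes of the fit and leaving out an early or sham pool leave the late difference as it was. Leaving out a late pool gives the difference at the other time, and the genes were chosen for 1 direction at both. Only the background model left out and the authors' matrix values could have changed a sign. Among the alternatives of the list medians 23 moved, mostly with the background model left out or with the authors' matrix values (the lymphocyte list to -0.29 and -0.27, the cholinergic list to 0.24 and 0.22), 100 kept within their limits and 0 reversed. The fit itself sets G93A against WT within each condition. No paired analysis by replicate number was possible because each group is 1 pool.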
